A study of Arabidopsis thaliana with 30 samples.

Results

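The genes described here are the 4 nuclear genes for the small subunit of Rubisco, RBCS1A (AT1G67090), RBCS1B (AT5G38430), RBCS2B (AT5G38420) and RBCS3B (AT5G38410), and the gene for Rubisco activase, RCA (AT2G39730). They were chosen by name, as 5 of the 33602 genes in each count table, and all 5 passed the filter on low counts in both experiments. Transcripts were measured by RNA-seq in Arabidopsis thaliana seedlings of ecotype Col-0, in 10 groups of 3 libraries. In the photomorphogenesis experiment (18 libraries), seedlings grown for 5 days in darkness at 21 °C stayed in the dark or were lit with white light, for 2 h or for 4 h. The heat shock experiment (12 libraries) used seedlings raised in long days for 12 days at 12 °C and then moved to 27 °C for 4 h (heat) or left at 12 °C (cold). Each condition was sampled in the bdr1,2,3 triple mutant and in the wild type. The mutant carries a T-DNA insertion in each of BDR1, BDR2 and BDR3, whose products resemble negative factors of transcription elongation, and it combines a single insertion allele per gene. The labels speak of 3 plates per condition and not of separate sowings, so the p-values measure the spread between plates.

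Rubisco fixes carbon dioxide in the chloroplast. Its large subunit is encoded by the plastid gene rbcL, and its small subunit by the nuclear RBCS family, whose products are imported and assembled with the large subunit by dedicated chaperones. Rubisco activase, an ATP-driven remodelling enzyme, frees the catalytic sites of sugar phosphates that block them, and it is known as a heat-sensitive step of photosynthesis. In dark-grown seedlings the plastids are etioplasts without chlorophyll, and RBCS and RCA are textbook examples of genes that light switches on during greening.

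All 5 genes lie on the minus strand (TAIR10.1 coordinates). RBCS1A stands alone on chromosome 1 (25048158 to 25049667) and RCA on chromosome 2 (16570746 to 16573692). RBCS1B (15383167 to 15385320), RBCS2B (15380907 to 15382071) and RBCS3B (15376988 to 15378642) follow one another head to tail on chromosome 5, so that the upstream neighbour of RBCS2B is RBCS1B, at a distance of 1095 bp, and that of RBCS3B is RBCS2B, at 2264 bp. The upstream neighbours of RBCS1A, RBCS1B and RCA lie on the opposite strand, at 4005, 2697 and 2059 bp. The coding sequences are 543 bases long in RBCS1A, 546 bases in the other copies and 1341 bases in RCA. RBCS1A shared 89.9 to 90.1% of aligned coding bases with the other copies, and the 3 chromosome 5 copies shared 96.7 to 97.3% among themselves. Copies this alike can exchange reads. Of all stretches of 50 bases of the longest transcript, 98.5% occurred in no other gene for RBCS1A, 86.0% for RBCS1B, 78.6% for RBCS2B, 81.7% for RBCS3B and 100% for RCA. With stretches of 36 bases, RBCS2B had the lowest unique share (66.8%). How reads that fit several copies were treated is not given in the sources used here. The unique shares are over the longest transcript, of 1894 bases in RBCS1B, 935 in RBCS2B and 1210 in RBCS3B, and not over reads. Values of single B copies are therefore uncertain by an amount that these shares do not give, whereas those of RCA are not touched by this. RCA overlaps its neighbour AT2G39725, on the other strand, by 3 bases.

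Short stretches around motifs known from light-regulated promoters are shown because the 5 genes shared the light response below. The 500 bases before the first coding base were searched on both strands for the G-box (CACGTG), which bZIP and bHLH factors bind, for the I-box (GATAAG), a motif first described in RBCS promoters, and for the GT-1 box (GGTTAA), the CRT (CCGAC) and a heat shock element (GAANNTTC). In the lines that follow, printed 5′ to 3′ on the gene's strand from the RefSeq TAIR10.1 sequence, capitals mark only the motif that the line is named for. Every G-box is printed. Of the I-boxes, only the match nearest the coding start of each RBCS copy has a line of its own. An I-box on the other strand also falls, in lower case, within the G-box lines of RBCS2B and RBCS3B. The other I-box of RBCS1B overlaps the one printed and is seen in that line. The I-box of RCA and the remaining RBCS ones are left out, and their flanking letters differ from those shown.
RBCS1A G-box, chr1:25049491-25049520, minus strand: ggaattatcttcCACGTGgcattattccag
RBCS2B G-box, chr5:15382177-15382206, minus strand: ggagttttctgcCACGTGatcttatcctag
RBCS3B G-box, chr5:15378506-15378535, minus strand: ggagttttctgcCACGTGgccttatcctag
RCA G-box, chr2:16573579-16573608, minus strand: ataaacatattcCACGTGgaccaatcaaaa
RBCS1A I-box, chr1:25049462-25049491, minus strand: gcggttcaagccGATAAGggtctcaacacc
RBCS1B I-box, chr5:15385303-15385332, minus strand: aaagaaagataaGATAAGggtgtcaacacc
RBCS2B I-box, chr5:15382148-15382177, minus strand: gtggtccaaatcGATAAGggtgtcaacacc
RBCS3B I-box, chr5:15378477-15378506, minus strand: gtggtgcgtaccGATAAGggtgtcaacacc
A G-box was found in 4 of the 5 windows, once each, in RBCS1A, RBCS2B, RBCS3B and RCA, against 9.3% of 27443 protein-coding genes with the same window. RBCS1B held no such match. An I-box was found in all 5 windows, 2 in RBCS1A, 2 in RBCS1B that overlap by a shared letter, 3 each in RBCS2B and RBCS3B and 1 in RCA, against 23.5% of all genes. The GT-1 box occurred in RBCS1A, RBCS1B and RBCS2B (24.5% of all genes), and neither the CRT (23.4%) nor the heat shock element (21.0%) was matched in any of these 5 windows. Of the 4 G-boxes, 3 lie inside the annotated gene, and that of RBCS2B lies before it. The counts depended on the window, which was chosen after seeing the data because the annotated starts lie 93 to 418 bases before the coding start. In the 250 bases before the annotated start a G-box was found in 1 of the 5 genes (RBCS2B), against 6.5% of all genes, and an I-box in 2 (RBCS2B and RCA), against 12.3%. In that window the GT-1 box occurred in 2 (RBCS1B and RBCS3B), against 14.6%, the heat shock element in 1 (RBCS1A), against 9.6%, and the CRT in none, against 12.0%. These matches are descriptions of letters and not of bound sites.

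**Figure D1:**
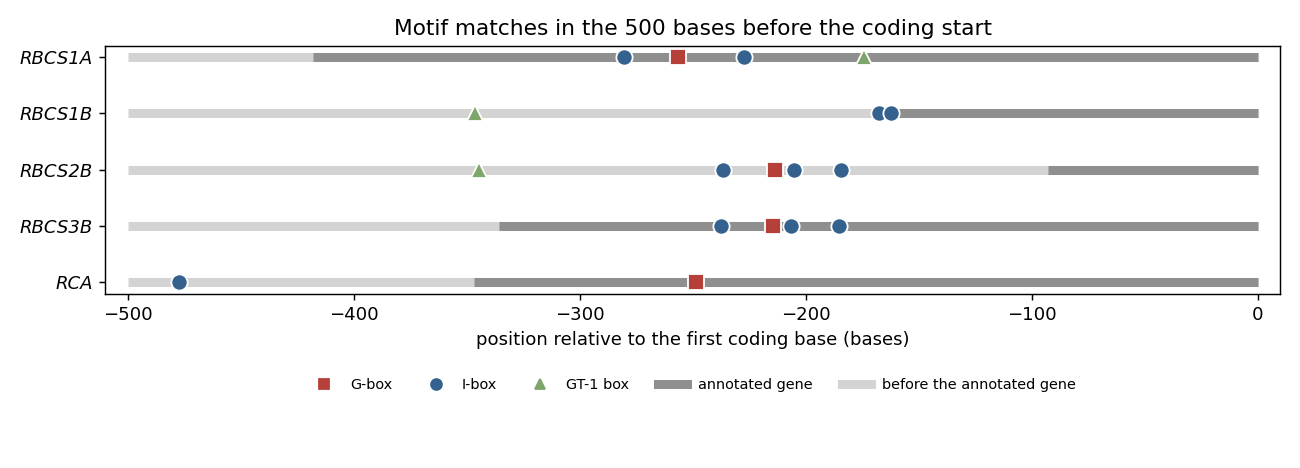
Positions of G-box, I-box and GT-1 box matches in the 500 bases before the first coding base of each gene (x axis, bases). Squares, circles and triangles mark the motifs, and dark bars the annotated gene. The G-boxes of RBCS2B and RBCS3B lie at nearly the same distance, 216 and 217 bases before the coding start at their first base, and RBCS1B has none.

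The photomorphogenesis libraries held 7517174 to 22888978 counts, and those of the heat shock experiment 6823975 to 22458726. Values below are CPM, counts scaled to a common effective library size. BDR1 transcripts were at 1.66 to 3.65 CPM in bdr1,2,3 libraries, against 51.7 to 112.4 CPM in wild-type libraries, which is the direction the labels give. BDR2 and BDR3 were less reduced, and BDR3 in the cold was not (5.34 to 5.85 CPM in bdr1,2,3, 5.03 to 6.32 CPM in the wild type). Together the 5 genes took 0.154 to 0.203% of all counts in the bdr1,2,3 dark libraries and 0.158 to 0.189% in the wild-type dark libraries, and between 1.49 and 2.16% in the 4 h light, cold and heat libraries of either genotype.

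Per kilobase of coding sequence, the order of the transcripts was RBCS1A, RBCS3B, RCA, RBCS2B and RBCS1B at 2 and 4 h after the start of illumination and at both temperatures in both genotypes, and RBCS1A led in all 10 groups. In bdr1,2,3 seedlings RBCS1A stood at 2056 CPM per kb in the dark, 5165 at 2 h and 9273 at 4 h of light, and in the wild type at 1736, 6573 and 10026.5. In the dark RCA came after RBCS2B and RBCS3B, whose ranges overlapped in both genotypes. The ranges of RCA and RBCS2B overlapped in wild-type seedlings at 2 h of light and in the heat in both genotypes. Per kilobase of the merged exons of all transcripts of a gene, RBCS1A also led in all groups and RBCS1B was last. By group means on this scale, RCA stood above RBCS3B in the light and in the cold. Their ranges overlapped in the wild type at 2 h of light. The highest level per coding kilobase was that of RBCS1A in the cold, with 19089 ± 1771 CPM per kb in bdr1,2,3 and 16982 ± 1056 in the wild type (SD, n = 3 each).

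Light raised all 5 genes in both genotypes at both time points (edgeR quasi-likelihood test, Benjamini-Hochberg adjusted p under 0.05). As background, 33.9% of the 19521 genes tested rose at 2 h in bdr1,2,3, 33.9% at 2 h in the wild type, 35.9% at 4 h in bdr1,2,3 and 35.2% at 4 h in the wild type. The median log2 fold change of the 5 genes at 4 h was 3.98 in bdr1,2,3 and 3.94 in the wild type, against 0.012 and 0.004 over all genes. From 2 to 4 h all 5 rose further, against 22.5% of all genes in bdr1,2,3 and 23.4% in the wild type.

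RBCS1A, the most abundant small subunit gene, had the smallest response of the 5. Its level was 1318, 1083 and 947 CPM in the 3 dark bdr1,2,3 libraries, 2875, 2859.5 and 2679 at 2 h and 4522, 5249.9 and 5334 at 4 h. In wild-type libraries it was 842, 1034 and 951 CPM in the dark, 3221, 3807 and 3679 at 2 h and 5301, 5525 and 5508 at 4 h. No light library overlapped a dark library of its genotype. The log2 fold change at 2 h was 1.33 ± 0.11 (SE, adjusted p = 4.64e-11) in bdr1,2,3 and 1.92 ± 0.11 (SE, adjusted p = 5.85e-14) in the wild type, and at 4 h 2.17 and 2.53.

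RBCS1B was close to silent in the dark and had the largest fold response. It had 38, 9 and 9 counts (1.66, 0.687 and 0.712 CPM) in the dark bdr1,2,3 libraries and 5, 17 and 22 counts (0.658, 1.53 and 1.84 CPM) in the dark wild-type libraries. At 2 h it reached 221, 226 and 209 CPM in bdr1,2,3, against 274, 356 and 308 in the wild type. At 4 h it stood at 409, 483 and 459.9 CPM in bdr1,2,3, against 430.3, 433 and 444 in the wild type, where the ranges of the genotypes overlapped. The log2 fold change at 4 h was 8.62 ± 0.18 (SE, adjusted p = 1.1e-19) in bdr1,2,3 and 8.24 ± 0.19 (SE, adjusted p = 4.62e-19) in the wild type, on a dark level of few reads, which cannot be told apart from reads of the other copies. Even in the light RBCS1B was the least abundant copy.

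RBCS2B and RBCS3B, the other members of the chromosome 5 cluster, were of similar level in the dark and parted in the light. RBCS2B had 245, 196 and 159 CPM in the dark, 912, 889 and 846 at 2 h and 1282, 1417 and 1348 at 4 h in bdr1,2,3 libraries. In the wild type the values were 284, 329.6 and 304 CPM in the dark, 1295, 1621 and 1452 at 2 h and 1928, 1863 and 2130.3 at 4 h. In each of the 3 conditions every bdr1,2,3 library lay below every wild-type library. RBCS3B had 234, 190.4 and 200.0 CPM in the dark, 1684, 1704 and 1620.2 at 2 h and 3138, 3404 and 3308 at 4 h in bdr1,2,3. Wild-type libraries had 253, 290.0 and 220.2 CPM of RBCS3B in the dark, 1920.1, 2391 and 2304 at 2 h and 3882, 3943 and 3851 at 4 h. The genotypes overlapped for RBCS3B in the dark only. The log2 fold change at 4 h was 2.75 for RBCS2B and 3.98 for RBCS3B in bdr1,2,3, and 2.69 and 3.94 in the wild type.

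RCA rose more than the summed RBCS rows. It had 228, 180.2 and 163 CPM in the dark, 3261, 3324 and 3154 at 2 h and 5363, 6364 and 6047 at 4 h in bdr1,2,3 libraries. In wild-type libraries it had 185, 209 and 221 CPM in the dark, 3515, 4712 and 4261 at 2 h and 6961, 6892 and 7187 at 4 h. At 2 and at 4 h every bdr1,2,3 library was below every wild-type library. The fold change at 4 h was 31-fold in bdr1,2,3 and 34.2-fold in the wild type, with log2 values of 4.96 ± 0.13 (SE, adjusted p = 3.59e-20) and 5.10 ± 0.13 (SE, adjusted p = 3.15e-20). For the sum of the 4 RBCS rows it was 6.63-fold in bdr1,2,3 and 7.81-fold in the wild type.

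**Figure D2:**
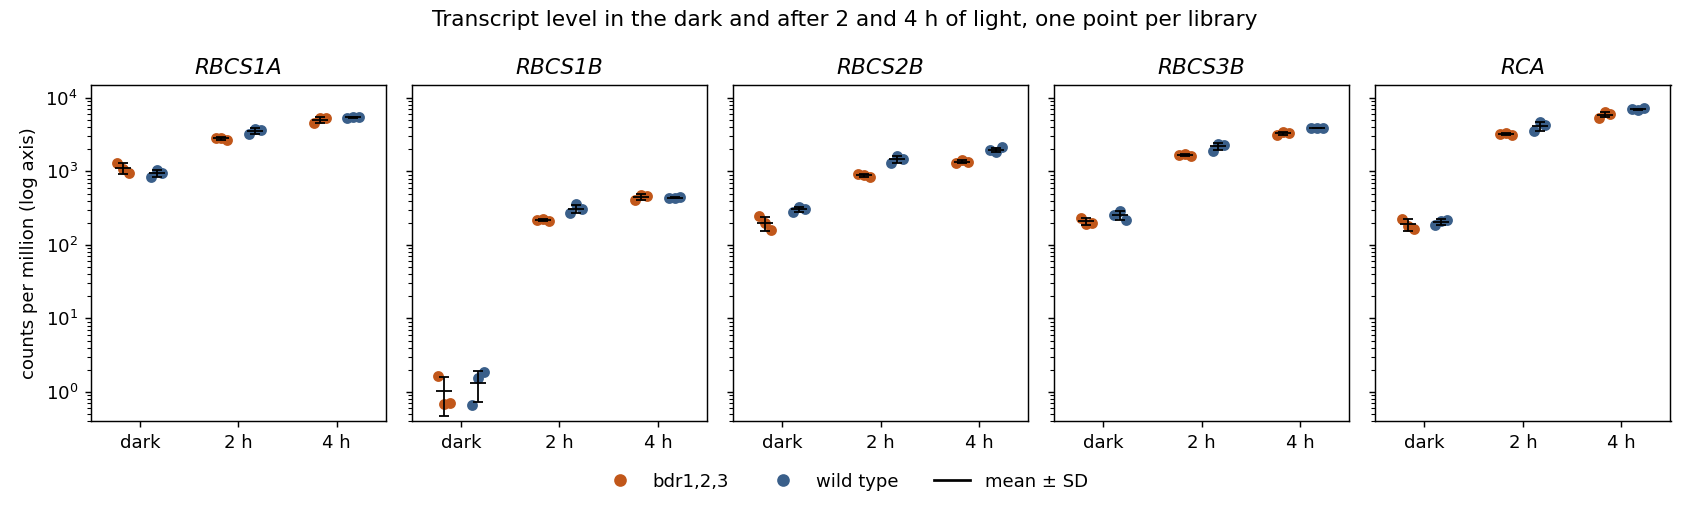
CPM (log axis) of each gene in darkness and after 2 and 4 h of light, with bdr1,2,3 (orange) left of the wild type (blue); points are libraries, bars the mean ± SD of 3. RBCS1B goes up the most, with 0.658 to 1.84 CPM in the dark and 208.5 to 483.0 CPM in the light, and RBCS2B is lower in bdr1,2,3 in all 3 conditions.

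The log2 ratio of RCA to summed RBCS counts rose with light in both genotypes. It was -3.003 ± 0.03 in the dark, -0.78 ± 0.02 at 2 h and -0.77 ± 0.04 at 4 h in bdr1,2,3, and -2.88 ± 0.12, -0.86 ± 0.07 and -0.74 ± 0.02 in the wild type (SD, n = 3 each). The mean difference between 4 h and the dark, with libraries permuted within genotype, was 2.18 (exact p = 0.005, adjusted p = 0.00781, two-sided, adjusted over 25 such tests), where 0.005 is the smallest p this arrangement allows. Between genotypes the ratio differed by -0.03 over the 3 conditions (exact p = 0.526, adjusted p = 0.548).

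Which genes depended on the BDR genes was asked by setting bdr1,2,3 against the wild type within each condition. RBCS2B was lower in bdr1,2,3 in all 3 conditions of the photomorphogenesis experiment, with a log2 fold change of -0.61 ± 0.11 (SE, adjusted p = 0.000578) in the dark, -0.72 ± 0.11 (SE, adjusted p = 6.33e-05) at 2 h and -0.55 ± 0.11 (SE, adjusted p = 0.00126) at 4 h. These 3 calls held in each alternative fit that was run. In the dark 2 of the 5 genes were lower, against 11.3% of all genes, the other being RBCS3B at -0.29 ± 0.10 (SE, adjusted p = 0.0405). That call was lost in 8 of 14 alternatives, and its log2 value was -0.18 (adjusted p = 0.262) without wild-type dark replicate 2. RBCS1A in the dark was at 0.24 ± 0.10 (SE, adjusted p = 0.105), and at 0.35 (adjusted p = 0.0173) without bdr1,2,3 replicate 3. RCA was at -0.10 ± 0.11 (SE, adjusted p = 0.573) and RBCS1B at -0.32 ± 0.37 (SE, adjusted p = 0.594).

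At 2 h of light all 5 genes were lower in bdr1,2,3, against 10.6% of all genes. The log2 fold change was -0.35 ± 0.10 (SE, adjusted p = 0.0186) for RBCS1A, -0.52 ± 0.11 (SE, adjusted p = 0.00146) for RBCS1B, -0.40 ± 0.10 (SE, adjusted p = 0.00374) for RBCS3B and -0.36 ± 0.11 (SE, adjusted p = 0.0221) for RCA. The summed RBCS rows were at -0.44 ± 0.10 (SE, adjusted p = 0.0033). No bdr1,2,3 library overlapped a wild-type library for any of the 5. The RBCS1A call was lost on leaving out wild-type replicate 2 or 3 or bdr1,2,3 replicate 3 (adjusted p = 0.0911, 0.063 and 0.0826), and the RCA call on leaving out any of these or bdr1,2,3 replicate 1 or 2 (adjusted p = 0.0539 to 0.153).

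At 4 h of light only RBCS2B was called among the 5 in the fit over all groups, against 8.67% of all genes lower. RBCS3B was at -0.25 ± 0.10 (SE, adjusted p = 0.0811) and RCA at -0.24 ± 0.11 (SE, adjusted p = 0.137), with 95% intervals of -0.44 to -0.05 and -0.47 to -0.02. Libraries with the same replicate number shared deviations from their group means in this condition, and a fit of only these 6 libraries with the replicate number as a block called both, RBCS3B at -0.25 (adjusted p = 0.00324) and RCA at -0.25 (adjusted p = 0.00658). The 6-library fit without a block also called both (adjusted p = 0.0242 and 0.0478). The block in the fit over all groups called only RBCS2B. DESeq2 over all groups called RBCS3B (-0.26, adjusted p = 0.0385) and not RCA. The calls of RBCS3B and RCA thus depended on which libraries were fitted, and that of RBCS3B also on the method. RBCS1A (95% interval -0.33 to 0.10) and RBCS1B (-0.17 to 0.27) were not called in either fit of the 6 libraries. Over all genes 1535 were higher and 1692 lower, and with total counts in place of TMM 1988 and 1410. RBCS2B stayed lower under that scaling. The summed RBCS rows were at -0.22 ± 0.10 (SE, adjusted p = 0.162).

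**Figure D3:**
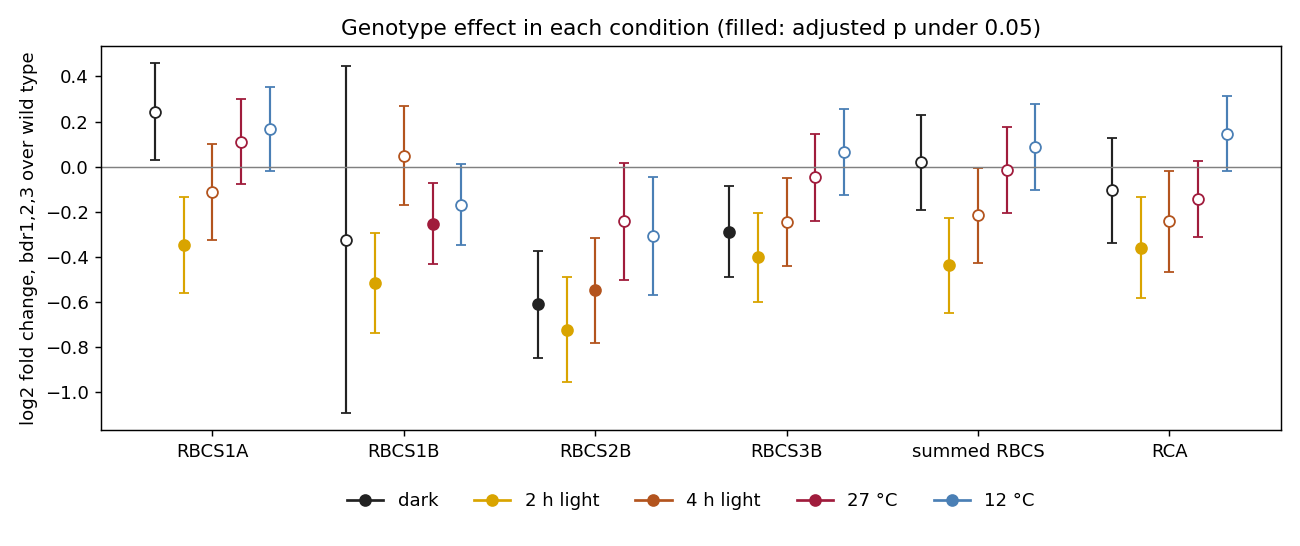
Log2 fold change of bdr1,2,3 over the wild type (y axis) for each gene and for the summed RBCS rows in 5 conditions. Points are edgeR estimates and bars 95% intervals; filled points have an adjusted p under 0.05. RBCS2B lies below 0 in all 5 conditions, between -0.72 and -0.24, and is called in the dark, at 2 h and at 4 h of light.

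The interaction term asked whether the light response itself differed between genotypes. At 2 h it was called for RBCS1A alone, at -0.59 ± 0.15 (SE, adjusted p = 0.033), against 1.84% of all genes called in either direction. RBCS1A rose 2.51-fold in bdr1,2,3 and 3.79-fold in the wild type. The call was lost without 9 of the 12 libraries, left out one at a time, and the term was -0.46 (adjusted p = 0.0893) without bdr1,2,3 dark replicate 1, the dark bdr1,2,3 library with the highest RBCS1A level. For the other 4 genes the term was between -0.25 and -0.11. At 4 h none of the 5 was called, against 2.07% of all genes. Without adjustment RBCS1A alone passed a p of 0.05 in edgeR, and DESeq2 called none of them.

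Markers of other tissues moved with genotype in this experiment. Of 13 root genes fixed as markers, 9 were tested, of which 4 were higher and none lower in bdr1,2,3 in the dark, 5 and none at 2 h, and 4 and none at 4 h. Over all genes 8.04% were higher in the dark, 8.67% at 2 h and 7.86% at 4 h. Their summed level was 3134 to 3366 CPM in bdr1,2,3 and 2279 to 2704 CPM in the wild type in the dark, 3757 to 3972 against 2568 to 2877 CPM at 2 h, and 7346 to 7843 against 5598 to 6220.4 CPM at 4 h. Without PYK10, the most abundant of them, it was 606 to 676 against 487 to 524 CPM in the dark. Markers of the endodermis were well expressed in both genotypes, CASP1 at 203 CPM in bdr1,2,3 and 137 CPM in the wild type in the dark (group means). IRT1 of the root epidermis and the root hair genes COBL9 and EXPA7 were at 0 to 0.87 CPM in all 6 groups. Of 5 epidermis and guard cell markers, 2 were higher in bdr1,2,3 in the dark, 1 was higher and 1 lower at 2 h, and 1 was higher at 4 h. The part of these tissues in the lower RBCS and RCA values was not tested, and in whole seedlings fewer green cells and less transcript per cell cannot be told apart.

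The make-up of the RBCS counts differed between genotypes in the same direction, by group means, in all 5 conditions. The share of RBCS1A was higher in bdr1,2,3, and that of RBCS2B lower. Shares are parts of the same sum, so a lower share of RBCS2B by itself raises that of RBCS1A, and their tests are not independent. The level of RBCS1A was not called higher in bdr1,2,3 in any condition in the fit over all groups, and was called lower at 2 h of light (-0.35, edgeR adjusted p = 0.0186). RBCS2B held 13.6, 13.3 and 12.2% of RBCS counts in the dark bdr1,2,3 libraries, against 20.6, 19.9 and 20.6% in the wild-type ones. At 2 h it held 16.0, 15.7 and 15.8% in bdr1,2,3, against 19.3, 19.8 and 18.8% in the wild type. At 4 h the values were 13.7, 13.4 and 12.9% in bdr1,2,3 and 16.7, 15.8 and 17.9% in the wild type. The groups did not overlap in any of these. Over the 3 conditions, with genotype permuted within each, the share of RBCS2B differed by -4.75 percentage points in bdr1,2,3 minus wild type (exact p = 0.00025, adjusted p = 0.00313) and that of RBCS1A differed by 5.61 points (exact p = 0.00025, adjusted p = 0.00313). The p of 0.00025 is the smallest the 8000 arrangements allow. For RBCS3B the difference was -1.03 points (exact p = 0.143, adjusted p = 0.172).

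The same direction was seen in the other experiment, in plants of another age and growth regime. In the heat RBCS2B held 13.9, 16.5 and 15.6% of RBCS counts in bdr1,2,3, against 16.1, 18.6 and 19.1% in the wild type, and in the cold 7.7, 8.5 and 8.7% against 10.7, 10.5 and 11.6%. The ranges overlapped in the heat and not in the cold. Over both temperatures the share of RBCS2B differed by -2.60 points (exact p = 0.01, adjusted p = 0.0147) and that of RBCS1A by 3.86 points (exact p = 0.005, adjusted p = 0.00781). That of RBCS1B differed by -0.75 points (exact p = 0.005, adjusted p = 0.00781). This was not shared by the photomorphogenesis experiment, where the RBCS1B share differed by 0.17 points over dark and light (exact p = 0.144, adjusted p = 0.172). The shares rest on counts that similar copies could exchange.

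Light shifted the RBCS counts towards RBCS3B and away from RBCS1A. RBCS1A made up 73.1% ± 0.614 of RBCS counts in the dark and 49.7% ± 1.34 at 4 h of light in bdr1,2,3, and 62.6% ± 1.68 and 46.3% ± 0.547 in the wild type (SD, n = 3 each). RBCS3B held 13.8% ± 1.34 in the dark and 32.5% ± 0.971 at 4 h in bdr1,2,3, and 16.9% ± 1.80 and 33.1% ± 0.754 in the wild type. At 4 h minus dark, over both genotypes, RBCS1A differed by -19.85 points and RBCS3B by 17.48 points (exact p = 0.005, adjusted p = 0.00781 for each). A comparison of 3 libraries with 3 cannot go below an exact p of 0.10, so within a single genotype or condition only the values are given.

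**Figure D4:**
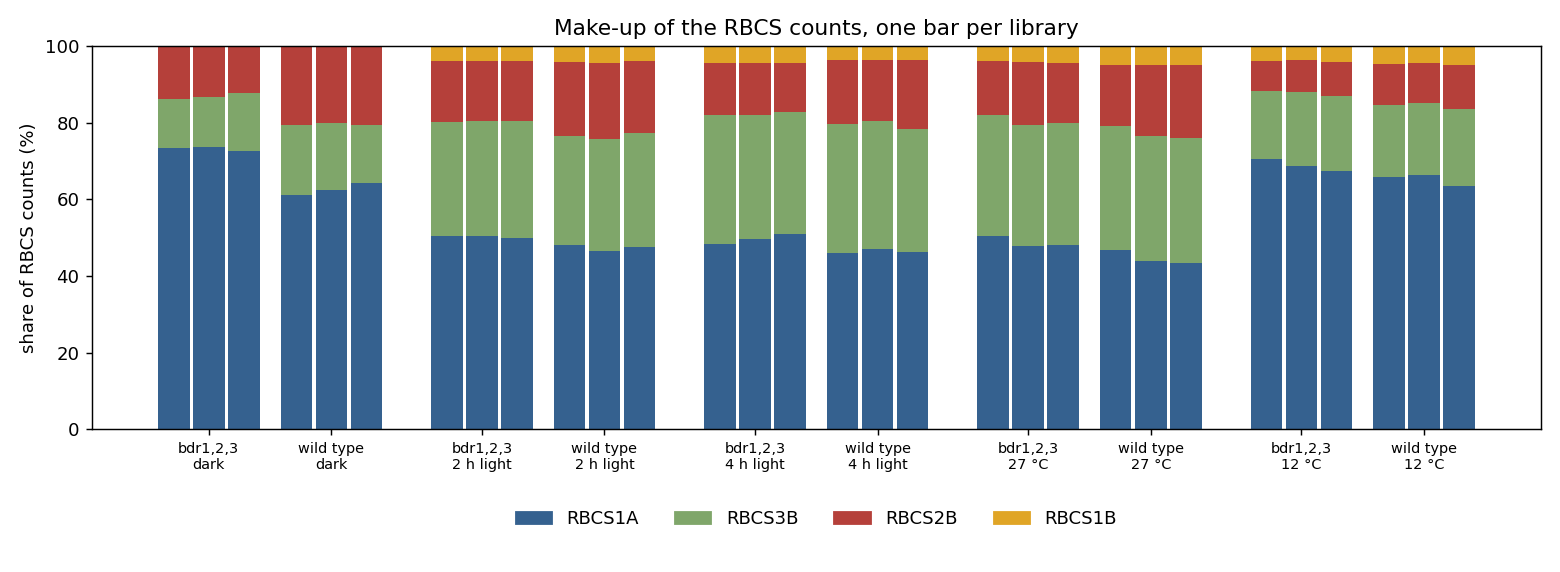
Share of the summed RBCS counts (%) held by each copy, one bar per library, with bdr1,2,3 left of the wild type in each condition. RBCS1A holds about the same range after light and in the heat, 48.4 to 51.0% in bdr1,2,3 at 4 h of light and 47.7 to 50.3% in the heat, and more in the dark and in the cold.

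The shift to 27 °C lowered RBCS1A and raised RBCS2B and RBCS3B in both genotypes. RBCS1A had 5852, 6155 and 5328 CPM in the heat, against 10538, 11229 and 9328 in the cold, in bdr1,2,3. In the wild type it had 5042, 5373 and 5638 CPM in the heat, against 9288, 9758 and 8617 in the cold. Heat and cold libraries did not overlap, and the log2 fold change was -0.84 ± 0.09 (SE, adjusted p = 3.8e-07) in bdr1,2,3 and -0.79 ± 0.09 (SE, adjusted p = 9.66e-07) in the wild type. Of the 5 genes, 2 rose and 2 fell in bdr1,2,3, against 29.4% and 31.2% of the 19473 genes tested, and 3 rose and 1 fell in the wild type, against 29.3% and 28.5%.

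RBCS3B had 3691, 4066 and 3529 CPM in the heat, against 2649, 3159 and 2708 in the cold, in bdr1,2,3, and 3475, 3981 and 4205, against 2649, 2749 and 2742, in the wild type. RBCS2B had 1619, 2127 and 1730.4 CPM in the heat, against 1148, 1389 and 1206 in the cold, in bdr1,2,3, and 1733, 2272 and 2477, against 1504, 1545 and 1579, in the wild type. For both copies every heat library lay above every cold library of its genotype. The log2 fold change was 0.41 ± 0.09 (SE, adjusted p = 0.000988) for RBCS3B in bdr1,2,3, 0.52 ± 0.09 (SE, adjusted p = 0.000116) in the wild type, and 0.55 and 0.49 for RBCS2B. RBCS1B was at -0.25 ± 0.09 (SE, adjusted p = 0.0188) in bdr1,2,3, a call lost without heat replicate 1 or 3 or cold replicate 2 of that genotype (adjusted p = 0.0922, 0.057 and 0.0501), and at -0.16 ± 0.09 (SE, adjusted p = 0.115) in the wild type, where it was called without heat replicate 3 (-0.23, adjusted p = 0.0434) and with total counts (-0.21, adjusted p = 0.0371). RBCS1B, unlike its neighbours in the cluster, was called lower or not at all.

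Over the 4 copies the shift lowered the RBCS sum by less than RBCS1A alone. Its log2 fold change was -0.34 ± 0.09 (SE, adjusted p = 0.00348) in bdr1,2,3 and -0.24 ± 0.09 (SE, adjusted p = 0.0327) in the wild type. The wild-type call was lost without cold replicate 1 or 2 or heat replicate 1 or 2 (adjusted p = 0.0626 to 0.132). The share of RBCS1A was 48.7% ± 1.41 in the heat, against 68.9% ± 1.61 in the cold, in bdr1,2,3, and 44.7% ± 1.80, against 65.2% ± 1.61, in the wild type. Over both genotypes it differed by -20.30 points between heat and cold (exact p = 0.005, adjusted p = 0.00781).

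RCA rose in the wild type and was not called in bdr1,2,3. It had 5299, 5527 and 5097 CPM in the heat, against 4962, 5463 and 5509 in the cold, in bdr1,2,3, where the ranges overlapped. In the wild type it had 5353, 6051 and 6174 CPM in the heat, against 4916, 4704 and 4777 in the cold, without overlap. The log2 fold change was -0.001 in bdr1,2,3 (95% interval -0.17 to 0.17) and 0.29 ± 0.08 (SE, adjusted p = 0.00493) in the wild type. The difference between these responses was -0.29 ± 0.11 (SE, adjusted p = 0.27), so a difference between genotypes was not shown over all genes. None of the 5 had an interaction call, against 1.02% of all genes, and RCA alone passed an unadjusted p of 0.05 (DESeq2 likewise called none). The log2 ratio of RCA to summed RBCS was -1.16 ± 0.06 in the heat, against -1.50 ± 0.15 in the cold, in bdr1,2,3, and -1.03 ± 0.03, against -1.56 ± 0.07, in the wild type (exact p = 0.005, adjusted p = 0.00781 over both).

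**Figure D5:**
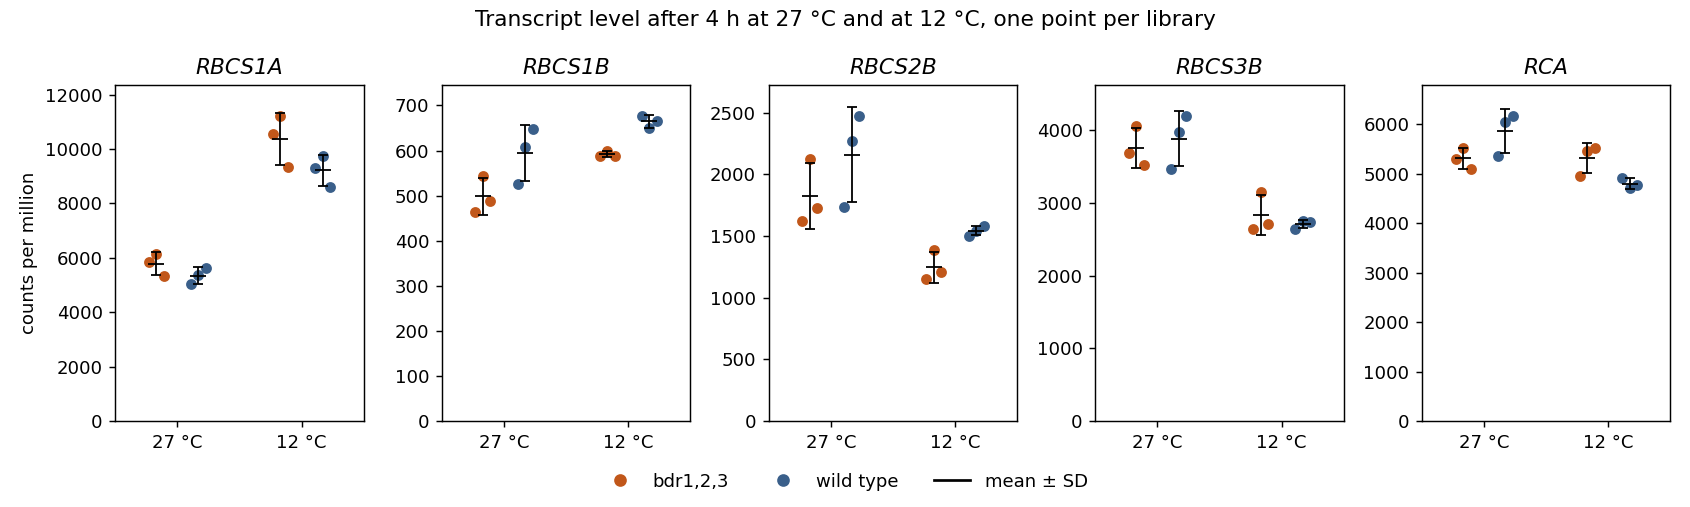
CPM of each gene after 4 h at 27 °C and at 12 °C, with bdr1,2,3 (orange) left of the wild type (blue); points are libraries, bars the mean ± SD of 3, and axes start at 0. RBCS1A is lower at 27 °C in both genotypes, and RBCS2B and RBCS3B are higher.

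Between genotypes in the cold, none of the 5 genes was called, against 10.9% of all genes. Without adjustment RBCS2B alone passed a p of 0.05 in edgeR, with a log2 fold change of -0.31 ± 0.12 (SE, adjusted p = 0.131), and DESeq2 called none of them. In edgeR RBCS2B was called with the replicate block over all groups (-0.31, adjusted p = 0.0337) and with only the groups compared (-0.31, adjusted p = 0.0311). With both of these none of the 5 was called. In the heat only RBCS1B was called lower in bdr1,2,3, at -0.25 ± 0.09 (SE, adjusted p = 0.0446), against 10.9% of all genes lower. RBCS1B had 464, 544 and 488 CPM in bdr1,2,3 and 526.4, 609 and 648 in the wild type, with overlap, and the call was lost without wild-type replicate 2 or 3 or bdr1,2,3 replicate 1 or 3 (adjusted p = 0.128 to 0.254; log2 value -0.16 without wild-type replicate 3). RBCS2B in the heat was at -0.24 ± 0.12 (SE, adjusted p = 0.189), and at -0.38 (adjusted p = 0.016) without wild-type replicate 1. With only the groups compared and the replicate block it was at -0.24 (adjusted p = 0.0288). With total counts in place of TMM, 595 of all genes were higher and 1796 lower in the cold (890 and 1239 with TMM), and 1105 and 2991 in the heat (1661 and 2123 with TMM), and RBCS2B was not called under either scaling.

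Root markers were low in the heat shock experiment: without PYK10 the summed level of the other 12 was 8.89 to 34.7 CPM in all 4 groups. Of 10 tested, none was called between genotypes by edgeR in the cold or in the heat. An unadjusted p of 0.05 was passed by 4 in the cold and 5 in the heat, against 4812 and 6192 of 19473 genes tested. The median log2 fold change of the 10 was -0.44 and -0.84. With the shift itself 7 in bdr1,2,3 and 6 in the wild type fell, against 31.2% and 28.5% of all genes. The part of the root markers in the RBCS and RCA values was not tested.

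Of 19 genes fixed as partners of Rubisco (its large subunit, assembly factors, chaperonins and neighbours in the pathway), light at 4 h raised 17 in bdr1,2,3 and 16 in the wild type and lowered 2 in each, with a median log2 fold change of 2.21 and 2.15. Over all genes 35.9% rose and 34.1% fell in bdr1,2,3, and 35.2% and 34.9% in the wild type. BCA1, a carbonic anhydrase, had 3.85, 3.97 and 3.64 CPM in the dark and 1299, 1616 and 1424 at 4 h in bdr1,2,3, and 6.19, 7.01 and 7.84 and 2171, 2205 and 2189 in the wild type. CBBY, which removes a sugar phosphate that inhibits Rubisco, was at 4.94 ± 0.14 (SE, adjusted p = 3.66e-18) in bdr1,2,3 and 4.86 ± 0.15 (SE, adjusted p = 9.76e-18) in the wild type. BCA2, another carbonic anhydrase, fell in both, at -1.59 ± 0.10 (SE, adjusted p = 9.06e-13) and -1.64 ± 0.10 (SE, adjusted p = 5.47e-13). The plastid transcript of rbcL, in these libraries of polyadenylated RNA, was at 11.8, 18.3 and 21.4 CPM at 4 h in bdr1,2,3 and 11.8, 23.0 and 39.9 in the wild type, a wide spread between replicates.

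More partners were lower than higher in bdr1,2,3 in the photomorphogenesis experiment, 4 against 1 in the dark, 8 against 1 at 2 h and 5 against 1 at 4 h of the 19. Over all genes 11.3% were lower and 8.04% higher in the dark, 10.6% and 8.67% at 2 h, and 8.67% and 7.86% at 4 h. RBCX2, an assembly chaperone, had 7.47, 8.85 and 8.70 CPM in bdr1,2,3 and 40.3, 36.8 and 33.6 in the wild type in the dark, with a log2 fold change of -2.15 ± 0.09 (SE, adjusted p = 2.53e-14). At 4 h of light it had 28.9, 28.7 and 29.7 CPM in bdr1,2,3 and 69.9, 73.1 and 73.0 in the wild type. In the cold and in the heat RBCX2 was not called, at 0.14 ± 0.10 (SE, adjusted p = 0.427) and 0.06 ± 0.10 (SE, adjusted p = 0.725). Its upstream neighbour AT5G19860 lies 15 bp away on the same strand, and its part in the RBCX2 counts was not tested. A close upstream neighbour on the same strand is not particular to RBCX2. BSD2, BCA2 and CP12-2 have one at 29, 111 and 122 bp, and BCA1 overlaps one. The upstream neighbours of RBCX1, CPN60A1, CPN60B1 and CPN60B2 lie on the opposite strand.

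CP12-2, a small protein that binds phosphoribulokinase, had 33.0, 31.3 and 27.8 CPM in bdr1,2,3 and 95.8, 117 and 92.1 in the wild type at 2 h of light, with a log2 fold change of -1.72 ± 0.11 (SE, adjusted p = 1.38e-10). It was also lower in bdr1,2,3 at 4 h, in the cold and in the heat, where the log2 fold change was -1.003 ± 0.16 (SE, adjusted p = 0.000757). BCA1 was lower in the dark, at 2 h and at 4 h, at -1.16 ± 0.09 (SE, adjusted p = 1.42e-09) at 2 h, and was not called in the cold or in the heat. PRK, the phosphoribulokinase that makes the substrate of Rubisco, was higher in bdr1,2,3 in the dark, at 0.31 ± 0.09 (SE, adjusted p = 0.0218), and lower at 2 h, at -0.26 ± 0.09 (SE, adjusted p = 0.0473).

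With the shift to 27 °C, 7 partners rose and 6 fell in bdr1,2,3, and 9 rose and 6 fell in the wild type, of 19. Over all genes 29.4% rose and 31.2% fell in bdr1,2,3 and 29.3% and 28.5% in the wild type, so that the counts of partners are not read as a result about the list. The chaperonin genes CPN60A1, CPN60B1, CPN60B2 and CPN20, whose products fold the large subunit, rose in both. CPN60B2 had 464, 296 and 267 CPM in the heat, against 59.6, 52.2 and 55.6 in the cold, in bdr1,2,3, and 608, 334 and 294, against 50.8, 67.3 and 60.8, in the wild type. Heat replicate 1 of each genotype had the highest CPN60B2 and the lowest RBCS2B value of its group. Assembly factors moved in both directions. Among them RBCX1 and BSD2 fell, BSD2 at -0.79 ± 0.07 (SE, adjusted p = 8.65e-08) in bdr1,2,3 and -0.60 ± 0.07 (SE, adjusted p = 2.32e-06) in the wild type. None of the 19 had a temperature interaction call in edgeR, against 1.02% of all genes. None passed an unadjusted p of 0.05 there, against 2526 of 19473 genes tested.

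Over the 10 group means of log2 CPM, with 6261 other genes as candidates, the genes whose pattern was most like RBCS1A were AT3G23700 (Pearson r = 0.994), AT3G60750 (0.994) and EMB2761 (AT2G04842, 0.991). Those most like the RBCS sum were AT1G11860 (0.997), EMB3119 (AT3G04790, 0.996) and AT4G02530 (0.996), and those most like RCA were AT1G27480 (0.997), AT1G77090 (0.996) and AT1G49380 (0.996). The 10 points share genotypes and experiments. With the 30 single libraries 1 of each 3 was kept, and with Spearman's coefficient none.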

How the data were processed

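Seedling RNA was sequenced from stranded mRNA libraries on a NextSeq500. The authors aligned reads to TAIR10 with STAR 2.5.2b and deposited raw counts per gene made with featureCounts. Whether strand was used, and how reads fitting several genes were counted, is not given in the sources used here. The normalized tables were not used.

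Counts were tested with edgeR 4.0.16 (R 4.3.3; filterByExpr, TMM, robust quasi-likelihood fit over all libraries of an experiment, 19521 and 19473 genes tested), with Benjamini-Hochberg adjustment over all genes tested and a threshold of 0.05. CPM are counts scaled to a common effective library size. Shares and ratios were compared by two-sided exact permutation tests over all arrangements of the libraries (Python 3.11.15, numpy 2.4.6). Coordinates and sequences are from RefSeq TAIR10.1, in which 98.5% of nuclear gene identifiers were matched, and borders may differ from those used for counting. The fit was tested on simulated data. Of the pairs of groups compared, only the genotypes at 4 h of light had same-numbered libraries whose deviations from the group means all correlated above 0.1 (r = 0.63, 0.407 and 0.187, from the data and not from the labels), so blocked values stand beside that comparison. Wild type at 2 h and bdr1,2,3 at 4 h, which were not compared, also passed (r = 0.455, 0.149 and 0.127). Other normalization, filters, DESeq2 1.42.0, fits of only the groups compared and leaving out each library were tried. The members and gene lists were chosen with earlier results of these data known. All members were named, partners were named for their role, and the 3 genes most alike were taken by Pearson r over group means. The 500-base motif window, total counts without TMM, the fits of 2 groups with a block and the tests over both genotypes were chosen after seeing the data. The depth given for each experiment limits precision most for RBCS1B in the dark.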

Additional observations from a re-analysis of the deposited data

Results flagged for a closer look

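Light responses that differed between genotypes by the interaction term of the edgeR fit (Benjamini-Hochberg adjusted p under 0.05) were found for RBCS1A and for 4 partners. Such calls made up 1.84% of all genes at 2 h and 2.07% at 4 h. That of RBCS1A was lost in 11 of 20 alternatives. At 2 h the difference in log2 response, bdr1,2,3 minus wild type, was -0.59 for RBCS1A, -0.57 for PRK, 0.48 for RBCX2 and -1.42 for CP12-2. At 4 h it was -0.57 for PRK, 0.84 for RBCX2 and 0.56 for CPN60B2. Groups of 3 libraries were too small for a test of single libraries that stand apart.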

How the results depend on the processing

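Of 48 called results of the 5 genes, 42 stayed called in every alternative run and none changed sign. The number of genes called in the dark was 2, and 1 with RLE size factors, with the replicate block, with only the groups compared and with both of these (1 to 2 without single libraries). At 2 h it was 5, and 3 to 5 without single libraries. At 4 h it was 1, 1 with the replicate block over all groups, and 3 with only the groups compared, 3 with the replicate block added and 2 with DESeq2. For the 2 h interaction it was 1, and 0 with only the groups compared and 0 with the replicate block added (0 to 1 without single libraries). In the cold it was 0, and 1 with the replicate block and 1 with only the groups compared. In the heat it was 1, and 0 with RLE size factors, 0 with only the groups compared and 2 with the replicate block added (0 to 2 without single libraries). The cause was not tested. Same-numbered heat libraries of the genotypes correlated by 0.379, 0.066 and 0.2, short of the pairing rule.

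The summed RBCS interaction at 2 h was -0.45 with DESeq2 (adjusted p = 0.047), and -0.56 to -0.32 without single libraries. The summed RBCS genotype difference in the heat changed sign, to 0.0086 with RLE size factors and 0.0095 with DESeq2 (-0.079 to 0.0666 without single libraries), and in the dark it was -0.12 to 0.12. The summed wild-type temperature response was -0.30 to -0.17. RCA in the bdr1,2,3 temperature shift, at -0.001, was 0.0159 with RLE size factors, 0.0016 without the filter, 0.0003 with the replicate block, 0.0135 with only the groups compared, 0.0144 with both of these and 0.0186 with DESeq2 (-0.0475 to 0.0282 without single libraries).

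Uncalled values that changed sign without single libraries were the 4 h genotype difference of RBCS1B (-0.0045 to 0.1243), the cold and heat ones of RBCS3B (-0.0182 to 0.1131 and -0.1218 to 0.0352), the 2 h interaction of RBCS1B (-0.4784 to 0.5017) and RBCS2B (-0.2526 to 0.0643), the 4 h interaction of RBCS2B (-0.0795 to 0.238), RBCS3B (-0.0633 to 0.1378) and RCA (-0.24 to 0.0138), and the temperature interaction of RBCS1A (-0.1283 to 0.0162), RBCS1B (-0.1659 to 0.0083) and RBCS2B (-0.0741 to 0.1986). So did the RBCS2B share response at 4 h in bdr1,2,3 (-0.13 to 0.603 points), the RBCS3B share difference in the cold (-0.685 to 0.233 points) and the log2 RCA to RBCS ratio in the cold (-0.028 to 0.103).

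Over all genes, 3227 were called between genotypes at 4 h and 5473 with the groups compared and the replicate block. The 4 h interaction had 404 calls, 249 in that fit, and as few as 205 without single libraries, the 2 h interaction as few as 218, the cold 2129 and 1293 without wild-type replicate 3, and the temperature interaction 198 and 42 to 354.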
